A study of Arabidopsis thaliana with 12 samples.

Results

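The data compared here are 6 of the 12 expression arrays of the series: 3 arrays of gmi1-1 seedlings and 3 arrays of wild type seedlings, all gamma-irradiated. Each array's group and number come from its title, where the replicates are called biological. The plants were Arabidopsis thaliana of the Col-0 ecotype, 5 days old and grown in continuous light at 21 °C. Both groups were exposed to 100 Gy from a cobalt source, at a rate between 27 and 34 Gy per minute, and were collected after 1.5 h. The remaining 6 arrays are 3 wild type and 3 gmi1-1 arrays of the same age without irradiation, and they entered the statistical model through the estimate of the spread. RNA came from whole seedlings, so fewer cells of a type and less RNA per cell cannot be told apart. The gmi1-1 line is a single mutant allele, and its molecular lesion is not stated in those labels. The question named by the series is whether GMI1 takes part in the transcriptional response to gamma rays.

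Gamma rays break both strands of DNA. In plants the kinase ATM senses such breaks and activates the transcription factor SOG1, which switches on genes for repair, for checkpoint control and for inhibitors of cell division, while genes of mitosis are turned down. GMI1 is itself one of the genes that ATM-dependent signalling induces. It codes for a protein with a hinge domain related to that of structural maintenance of chromosomes (SMC) proteins, the ring-forming proteins of cohesin, condensin and the SMC5/6 complex, and it has been linked to repair by homologous recombination.

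The 2 irradiated groups were not uniform, and 1 untreated gmi1-1 array went against its label. Irradiation of wild type raised 317 loci (3.21% of those tested), GMI1 among them, and lowered 132 (1.33%). On a scale over the 316 loci other than GMI1 that rose in irradiated wild type, where 0 is the mean of untreated and 1 the mean of irradiated wild type, gmi1-1 irradiated replicate 1 lay at 0.527, replicate 2 at 0.911 and replicate 3 at 0.849. The 3 wild type irradiated arrays lay at 0.889, 1.12 and 0.995. Over the 132 loci that fell in wild type, the gmi1-1 irradiated arrays lay at 0.442, 0.933 and 1.13 and the wild type ones at 0.888, 1.03 and 1.08. The library labelled gmi1-1 untreated replicate 1 lay at 0.606 and 0.399 on these scales, next to gmi1-1 irradiated replicate 1, while the other 5 untreated arrays lay between -0.06 and 0.10. The array nearest to gmi1-1 irradiated replicate 1 over all tested loci was that untreated library (r = 0.994). These 2 libraries labelled gmi1-1 replicate 1 are called the doubted libraries below. The GMI1 difference, the counts of calls and the list medians after irradiation are given with and without them. Single genes are given without them where stated. Another array, gmi1-1 irradiated replicate 3, stood apart in spread: its interquartile range was 4.70, against 5.28 to 5.83 in the other 11 arrays, and its 5′ minus middle signal of the GAPDH control was -1.30 on the log2 scale, against -0.47 to -0.17 elsewhere. All values below are log2 expression values, and every difference is gmi1-1 minus wild type after irradiation unless said otherwise.

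**Figure D1:**
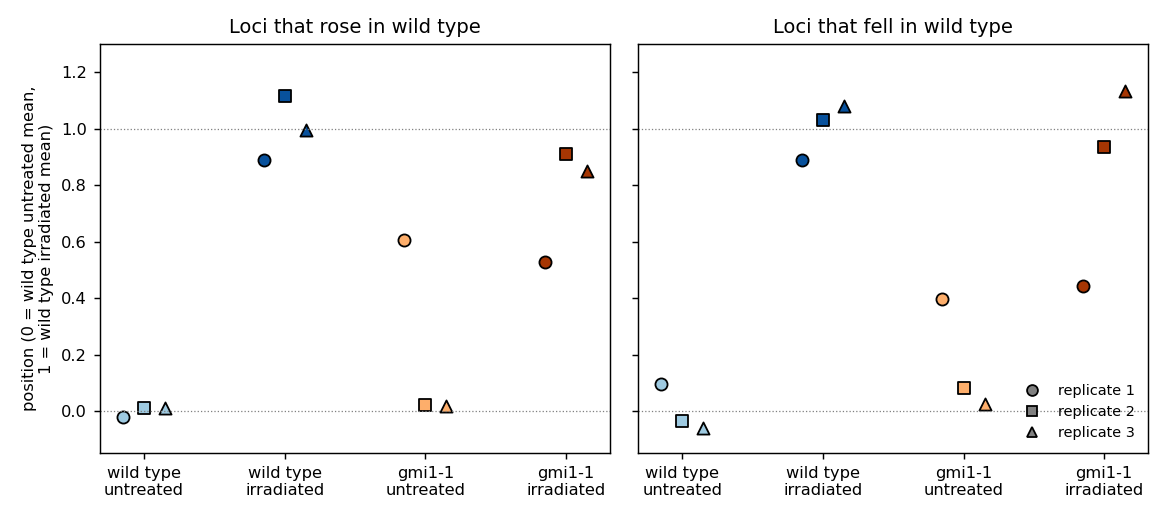
Position of each of the 12 arrays on the wild type irradiation scale (vertical axis, no unit: 0 is the wild type untreated mean and 1 the wild type irradiated mean), for the 316 loci that rose (left) and the 132 that fell (right) in wild type; point shapes are replicate numbers. Both gmi1-1 libraries numbered 1 lie between the levels of untreated and irradiated wild type, and the other 2 gmi1-1 irradiated arrays lie at 0.849 to 1.13.

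GMI1 (AT5G24280) set the groups apart more than any other locus. Its level was 9.97, 10.92 and 10.46 on wild type irradiated replicates 1 to 3, and 1.44, 1.60 and 1.29 on the gmi1-1 irradiated arrays. All 3 gmi1-1 arrays, replicate 1 included, were thus far below the lowest wild type array, and they lay beside the untreated gmi1-1 arrays, which read 1.66, 1.31 and 1.24. The difference was -9.01 ± 0.27 (SE, n = 3 against 3, limma adjusted p = 5.07e-09), and -9.005 without the doubted libraries. In wild type GMI1 went from a mean of 2.25 without irradiation to 10.45 after it. GMI1 is 1 of 7 loci that passed the filter on low values only through the wild type irradiated group, so its place among the tested loci rests on that group. No source used here gives where the GMI1 probes lie relative to the lesion in gmi1-1. The same line showed -0.84 for GMI1 without irradiation, and the irradiation effect on GMI1 differed between the genotypes by -8.16 ± 0.38 (SE, limma adjusted p = 8.50e-07).

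The genes next to GMI1 on the chromosome were read as well. Of the 10 nearest measured neighbours, 5 on each side, 6 passed the filter and 0 passed limma's test, with 0 at an unadjusted p under 0.05. Closest to the threshold came SOS3, a calcium sensor of salt tolerance, whose wild type arrays read 5.71, 5.91 and 5.14 and whose gmi1-1 arrays read 5.14, 5.25 and 4.86 (difference -0.50 ± 0.24, limma adjusted p = 0.6275). Without irradiation SOS3 differed by -0.52, again without passing the test. The untreated arrays did not overlap, at 5.29, 4.98 and 5.22 in gmi1-1 against 5.7, 5.94 and 5.42 in wild type. Among the rest, the starch synthase gene SS1 differed by -0.22, the histone methyltransferase gene ATXR6 by 0.24, AT5G24210 by 0.08, AT5G24260 by -0.16 and AT5G24340 by -0.40. After irradiation the arrays of both groups overlapped at each of the 6 loci.

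Over all 9889 tested loci, GMI1 was the only one that passed limma's test: 0 loci were higher in gmi1-1 (0%) and 1 was lower (0.0101%) at an adjusted p under 0.05. The next smallest adjusted p was 0.6275, and 0.1657 without the doubted libraries, where GMI1 was again the only call. With the replicate number as a block over the 12 arrays the count was also 1. In the 6 irradiated arrays alone with that block, an alternative chosen after seeing the data, 2 loci were called, GMI1 and AT3G02400. At an unadjusted p under 0.05 there were 764 loci (7.73%), 12 higher (0.121%) and 752 lower (7.6%). At 37 loci all 3 gmi1-1 arrays lay above the 3 wild type arrays (0.374%), and at 688 they lay below (6.96%). This lean to lower values depended on the scaling: the median of all loci was -0.24, and with quantile normalization the unadjusted counts were 153 higher and 154 lower, with median centring of each array 130 higher and 195 lower. The counts of loci without overlap were then 236 higher and 205 lower with quantile values, and 262 higher and 246 lower with centred ones. Differences below are read against the median of -0.24, and counts of negative members against the 8102 loci (81.9%) with a difference below 0.

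The array numbers set how large a difference could have been missed. The median standard error was 0.29, and the 95% confidence interval of the difference lay wholly within 1 log2 unit of 0 at 5566 loci (56.3%) and within 2 units at 9500 (96.1%). Only 4 loci had differences beyond 2 units, all lower in gmi1-1; beyond 1 unit there were 14 higher and 178 lower. Besides GMI1 the 4 were LINC3, a coiled-coil protein of the nuclear envelope, CIP1, a coiled-coil partner of the light-signalling regulator COP1, and AT3G02400; these 3 were picked after their values were seen. LINC3 read 6.42, 8.02 and 7.52 in wild type against 6.44, 3.58 and 5.23 in gmi1-1. CIP1 read 7.97, 9.68 and 9.82 against 8.39, 5.09 and 7.30. Both had their gmi1-1 replicate 1 inside the wild type range and replicates 2 and 3 below it, and untreated gmi1-1 showed the same order (LINC3 6.26, 3.29 and 4.27; CIP1 7.83, 4.78 and 6.81). AT3G02400 read 7.53, 9.10 and 8.41 against 5.86, 6.65 and 6.17, without overlap (-2.12, limma adjusted p = 0.6275). AT3G02400 had an adjusted p of 0.0212 in limma with the 6 irradiated arrays alone and a replicate block.

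**Figure D2:**
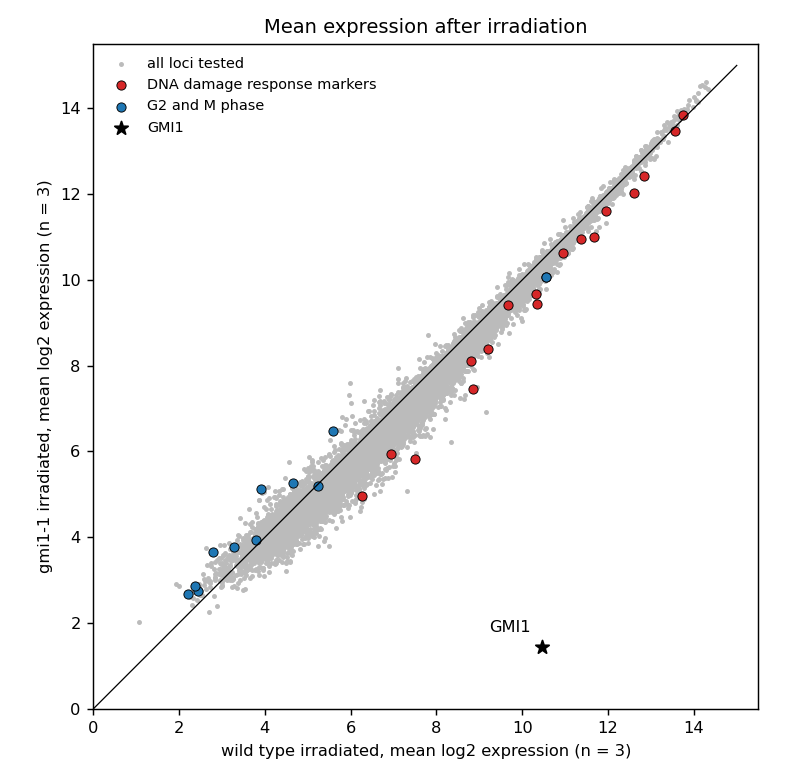
Mean log2 expression of the 3 gmi1-1 irradiated arrays (vertical) against the 3 wild type irradiated arrays (horizontal) for the 9889 tested loci; the line marks equal means, red points are 18 DNA damage markers, blue points 11 genes of G2 and M phase. GMI1 lies alone at 1.44 against 10.45, and 17 of the 18 damage markers lie below the line.

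The DNA damage markers were high in both irradiated groups. This list holds 18 tested genes of repair and checkpoint control, all of which rose in irradiated wild type. None of the 18 passed the test between the genotypes, 0 at an unadjusted p under 0.05 either, and 1 had arrays without overlap. Their median difference was -0.62, beside -0.24 for all loci, and 17 of 18 were negative, beside 81.9% of all loci. Array by array, the median deviation of the list from the wild type irradiated mean was -1.40 on gmi1-1 replicate 1, -0.10 on replicate 2 and -0.34 on replicate 3. Without the doubted libraries the list median was -0.24, beside -0.29 for all loci. The low list median of the gmi1-1 group thus moved with its replicate 1 library. All 18 genes are among the 316 loci on which that library was marked as doubted, so this move followed from the choice. What sets that library apart was not tested.

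The 4 genes that follow were picked after their values were seen, as strong wild type responders. BRCA1, a partner of homologous recombination, read 11.38, 12.08 and 11.54 on the wild type arrays and 10.56, 11.48 and 10.99 on the gmi1-1 arrays. Its difference was -0.66, with a 95% interval from -4.002 to 2.69 that took in the spread of the untreated gmi1-1 group; without the doubted libraries it was -0.43, with an interval from -1.02 to 0.16. PARP2, an enzyme that marks broken DNA ends with poly(ADP-ribose), read 12.26, 12.90 and 12.66 against 11.44, 12.49 and 12.14. Each of these 2 genes was lowest on gmi1-1 replicate 1. SMR5, an inhibitor of cyclin-dependent kinases, read 10.88, 10.59 and 11.37 against 9.30, 11.03 and 11.54, and the X-ray induced gene XRI1 read 12.58, 13.01 and 12.90 against 11.63, 12.84 and 12.83. For SMR5 the difference was -0.32 with all arrays and 0.34 without the doubted libraries; for XRI1 it was -0.40 and 0.005. The sign of the SMR5 difference therefore turned with 1 library of the gmi1-1 irradiated group.

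Within the list, the members with the smallest p were the kinase WEE1, the recombination factor RAD54, the gene GEX1 and the transcription factor NAC103. WEE1, which holds the cell cycle back by phosphorylating cyclin-dependent kinase, read 6.38, 7.35 and 7.08 against 5.19, 6.86 and 5.75 (-1.003, limma adjusted p = 0.6275). RAD54, a DNA translocase of homologous recombination, read 5.96, 7.14 and 5.68 against 4.24, 6.45 and 4.16 (-1.31). GEX1 read 6.48, 8.17 and 7.87 against 3.76, 7.33 and 6.40 (-1.68, and -0.64 without the doubted libraries). NAC103 read 8.36, 9.33 and 8.83 against 6.2, 8.38 and 7.79 (-1.38, and -0.76 without them). At each of these 4 genes gmi1-1 replicate 2 lay within the wild type range, and so the groups overlapped.

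**Figure D3:**
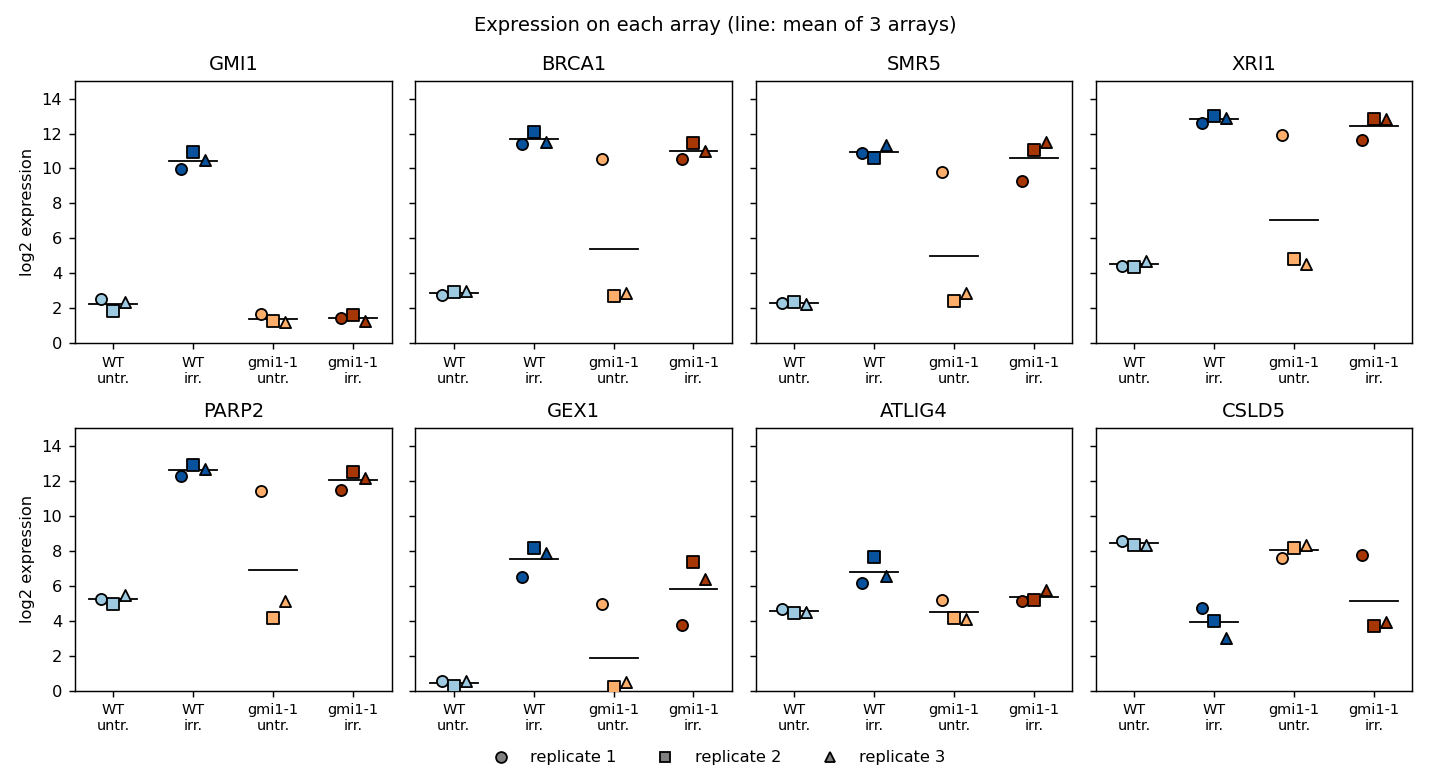
Log2 expression (vertical) of 8 genes on each of the 12 arrays, in the 4 groups on the horizontal axis; shapes are replicate numbers and lines the means of 3 arrays. GMI1 stays between 1.24 and 1.66 on every gmi1-1 array, BRCA1, SMR5, XRI1, PARP2 and GEX1 are higher in both irradiated groups and on the library labelled gmi1-1 untreated replicate 1 than on the other 5 untreated arrays, ATLIG4 is lower on all 3 gmi1-1 irradiated arrays than on the wild type ones, and CSLD5 is high on gmi1-1 irradiated replicate 1 alone among the irradiated arrays.

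Among genes of homologous recombination, 0 of 9 passed the test, with a median of -0.66, and -0.73 without the doubted libraries. RAD50, the SMC-like subunit of the MRN complex that tethers broken ends, read 4.67, 6.08 and 4.67 against 4.74, 3.29 and 4.01 (-1.13 ± 0.47, limma adjusted p = 0.6275). AHP2, a homologue of the yeast meiotic recombination protein HOP2, read 8.42, 9.08 and 9.32 against 6.82, 8.59 and 7.07 (-1.45). The endonuclease gene MUS81 read 3.85, 5.01 and 3.57 against 4.05, 3.68 and 2.47 (-0.74). RAD50 and MUS81 had gmi1-1 replicate 1 among the wild type values, whereas AHP2 was lowest on that array. AHP2 is among the loci that rose in irradiated wild type, so its low replicate 1 was no separate result.

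Of 6 end joining genes 0 passed the test, and the median was -0.51, or -0.435 without the doubted libraries. At 1 gene all gmi1-1 arrays lay lower (16.7%, beside 6.96% of all loci). That gene was ATLIG4, the ligase that seals ends in the classical pathway: 6.12, 7.63 and 6.53 in wild type, 5.13, 5.17 and 5.77 in gmi1-1. Its difference was -1.40 ± 0.39 (limma adjusted p = 0.6275), and -1.29 without the doubted libraries. In wild type ATLIG4 gained 2.24 with irradiation. The subunits of the Ku ring that caps broken ends showed smaller values, -0.44 for KU70 and -0.29 for KU80, and the ligase LIG1 -0.30. KU80 and LIG1 became 0.03 and 0.06 with quantile normalization, so their sign followed the scaling.

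Checkpoint sensors and transducers gave 0 calls among 7 genes, and a median of -0.50, or -0.43 without the doubted libraries. SOG1, the central transcription factor of the plant damage response, read 5.36, 5.52 and 5.83 against 4.59, 5.08 and 5.44 (-0.53). The kinase gene ATM read 5.22, 5.59 and 4.59 against 5.05, 4.11 and 4.74 (-0.50). H2AXA, the histone variant phosphorylated at breaks, differed by 0.25. For these 3 genes the arrays of the groups overlapped.

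Because GMI1 has a hinge domain like those of SMC proteins, the SMC and cohesin genes and the DNA methylation genes with hinge-domain partners were listed too. None of the 7 tested cohesin and SMC genes passed the test; their median was -0.50, or -0.54 without the doubted libraries, and all 7 were negative, as were 81.9% of all loci. SMC5, a core subunit of the SMC5/6 complex, read 4.68, 5.38 and 4.97 against 3.97, 3.41 and 5.00 (-0.88 ± 0.37, limma adjusted p = 0.6275). The cohesin kleisin gene SYN4 read 7.82, 8.46 and 7.89 against 7.82, 7.83 and 6.33 (-0.73), and the cohesin subunit gene SCC3 differed by -0.50. EMB2773, which the annotation also lists as the cohesin loader SCC2, had risen by 5.61 in irradiated wild type and read 8.56, 9.98 and 8.98 against 7.54, 8.56 and 8.80 (-0.87, and -0.49 without the doubted libraries). Overlap between the groups was present at all 7 genes. The 11 DNA methylation and hinge-domain genes had a median of -0.20, near that of all loci, and 0 calls; the median was 0.06 with quantile normalization and -0.21 without the doubted libraries. MET1, the maintenance DNA methyltransferase, read 7.69, 7.63 and 7.49 against 7.46, 7.04 and 7.09, without overlap but at -0.41 (limma adjusted p = 0.6275). The chromatin remodeller CHR1 (AT5G66750) differed by -0.67, the RNA-dependent RNA polymerase RDR2 by -0.44 and the small RNA effector AGO4 by -0.31.

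Genes of G2 and M phase had the highest list median, 0.48 over 11 genes, with 0 calls and 0 at an unadjusted p under 0.05. In wild type 10 of the 11 fell with irradiation; 1 of the 11, CYCB2;4, passed the filter only through the untreated wild type group. CSLD5, a cell plate cellulose synthase-like gene, read 4.73, 3.98 and 3.01 in wild type against 7.74, 3.71 and 3.92 in gmi1-1. The cyclin gene CYCB1;4 read 3.34, 3.11 and 1.89 against 5.02, 3.68 and 2.29, and PLE, a microtubule cross-linker of the division apparatus, 2.81, 2.42 and 1.89 against 3.70, 2.46 and 2.43. Each of the 3 was highest on gmi1-1 replicate 1, and replicates 2 and 3 lay nearer to the wild type arrays. The median deviation of the list was 1.52, 0.09 and -0.49 on gmi1-1 replicates 1 to 3, and the list median was -0.09 without the doubted libraries. These shifts ran opposite to those of the damage markers on the same replicate 1 array. The 10 genes that fell are among the 132 loci on which that array lay at 0.442, so this was no separate result.

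The list median of replication genes lay near that of all loci. The 12 tested genes of S phase had a median of -0.21, or -0.23 without the doubted libraries, and 0 calls. MCM3 and MCM5, subunits of the replicative helicase, differed by -0.59 and -0.60; MCM3 read 6.18, 6.16 and 6.49 against 7.23, 5.08 and 4.74, so that replicate 1 lay above and replicates 2 and 3 below every wild type array. Without the doubted libraries MCM3 was -1.37 (limma adjusted p = 0.1657) and MCM5 -0.895. Inhibitors of cyclin-dependent kinases had a median of -0.25 over 10 genes, or -0.07 without the doubted libraries, and 0 calls. SIM, the founding member of the family of SMR5, read 9.01, 9.55 and 9.18 against 8.13, 9.09 and 8.66 (-0.62 ± 0.26, limma adjusted p = 0.6275), and ICK1 differed by -0.37.

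Early stress genes also lay apart on gmi1-1 replicate 1. The list of 12 touch and early stress genes had a median of -0.07, or 0.39 without the doubted libraries, and 0 calls. It held 1 gene without overlap, which was higher (8.33%, beside 0.374% of all loci). The median deviation of the list was -1.38, 0.34 and 0.70 on gmi1-1 replicates 1 to 3. Of the 12 genes, 9 rose in irradiated wild type and are among the 316 loci on which replicate 1 was marked as doubted. The low replicate 1 and the move of the list median were therefore in large part no separate result. ERF104, an ethylene response factor of early wound and immune signalling, read 7.29, 7.48 and 6.54 against 7.53, 8.30 and 7.99, the 1 gene of the list with all gmi1-1 arrays higher (0.84, limma adjusted p = 0.6545). The related factors ERF6 and ERF5 differed by 0.57 and 0.36. ERF6 read 6.45, 7.19 and 5.92 against 5.99, 7.52 and 7.75. RHL41, a zinc finger regulator of the cold and oxidative stress response, read 6.57, 6.60 and 6.81 against 5.07, 7.69 and 8.72. In RHL41 and ERF6 replicates 2 and 3 of gmi1-1 lay above all wild type arrays and replicate 1 did not.

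Mitochondrial and oxidative stress genes had a median of -0.30 over 10 genes, or -0.12 without the doubted libraries, with 0 calls; all 10 were negative, beside 81.9% of all loci. BCS1 (AT3G50930), an AAA ATPase of the mitochondrial membrane, read 6.38, 8.34 and 7.77 against 4.83, 6.99 and 7.30 (-1.12), and AT2G21640, a marker of the oxidative stress response, read 7.79, 7.84 and 8.70 against 5.98, 7.01 and 8.20 (-1.05). Both were lowest on gmi1-1 replicate 1, and both had replicate 3 within the wild type range. Both also rose in irradiated wild type, so their low replicate 1 was no separate result. Heat shock genes had a median of -0.11 over 9 genes, with 0 calls, and the sign turned without the doubted libraries, to 0.40. Their mean level was low on replicate 1 of untreated wild type too, at 6.19 against 8.03 and 7.74 on replicates 2 and 3. Untreated gmi1-1 read 6.29 against 8.01 and 7.81. The fit without the doubted libraries kept wild type irradiated replicate 1, at 6.58. What turned the sign was not tested. The heat shock factors HSFA7A and HSFB2A differed by 0.39 and 0.21.

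Hormone and defence genes gave 0 calls in each list. Salicylate and defence genes had a median of -0.34 over 5 genes, or -0.565 without the doubted libraries. PAD3, the last enzyme of camalexin synthesis, read 4.46, 4.70 and 4.48 against 3.48, 3.96 and 3.85, without overlap (-0.78 ± 0.37, limma adjusted p = 0.6275), and the defence regulator PAD4 differed by -0.34. Medians were 0.08 over 3 jasmonate genes, -0.05 over 7 ethylene genes, -0.22 over 3 abscisic acid and drought genes (0.04 with quantile normalization) and -0.10 over 7 auxin genes. Without the doubted libraries these 4 medians were -0.18, -0.10, -0.13 and -0.20, so that the jasmonate median turned its sign. The mean level of the jasmonate genes was highest on replicate 1 in every group, wild type included. In these lists AOS, which makes the jasmonate precursor, differed by 0.55, and MYC2, the jasmonate transcription factor, by -0.15. EBF2, which marks ethylene transcription factors for breakdown, differed by -0.47 and the receptor gene ERS2 by -0.45; the phosphatase gene ABI1 by -0.26 and the drought gene LTI78 by -0.22; the auxin repressor genes IAA2 and IAA1 by -0.57 and -0.36. None of the differences in these lists passed the test, and the groups overlapped at each gene named after PAD3.

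The 6 circadian clock genes had a median of -0.41, or -0.55 without the doubted libraries, and 0 calls. All 6 were negative, beside 81.9% of all loci, and 2 were lower without overlap, beside 6.96% of all loci. ELF3, a subunit of the evening complex, read 8.49, 8.84 and 8.29 against 7.90, 7.48 and 8.04 (-0.73 ± 0.25, limma adjusted p = 0.6275). TOC1, a repressor of morning genes, read 8.04, 8.51 and 7.87 against 7.63, 7.66 and 7.78 (-0.45). Glucosinolate synthesis genes had a median of 0.12 over 12 genes and 0 calls, and a median of -0.07 without the doubted libraries. GSTF11, a glutathione transferase of that pathway, read 4.32, 3.38 and 3.91 against 6.18, 4.60 and 3.83 (1.00), and FMO GS-OX1, which oxidises the side chain, differed by 0.90. Both were highest on gmi1-1 replicate 1, where the median deviation of the list was 1.00. Of the 12 genes, 5 fell in irradiated wild type, GSTF11 among them, so the high replicate 1 was in part no separate result.

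Marker genes of green tissue were high in each group, and those of roots lay nearer to the filter level of 4. Green tissue genes had mean levels of 13.2 to 13.9 on the 6 arrays, and a median difference of 0.17 over 4 genes, or 0.12 without the doubted libraries; the photosystem gene PSBO1 differed by 0.26 and the antenna gene LHCB4.1 by 0.21. Root and root hair genes had mean levels of 4.47 to 5.36 and a median difference of -0.17 over 11 genes, among them the endodermis regulator SCR at -0.45 and the root hair gene SHV2 at -0.48. Without the doubted libraries the root median turned its sign, to 0.205. Wild type replicate 1 and gmi1-1 replicate 1 had the lowest root levels, 4.54 and 4.47. In the untreated groups the root level was also lowest on replicate 1, at 5.00 in wild type and 4.57 in gmi1-1. What turned the sign of the root median was not tested. Stomatal lineage and meristem genes had a median of -0.26 over 5 genes, or -0.32 without the doubted libraries. SPCH, which starts the lineage, differed by -0.66. The receptor-like gene TMM differed by -0.47, the 1 gene of the 5 that was lower without overlap (20%, beside 6.96% of all loci). No gene of these lists passed the test, and no seed storage gene passed the filter.

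**Figure D4:**
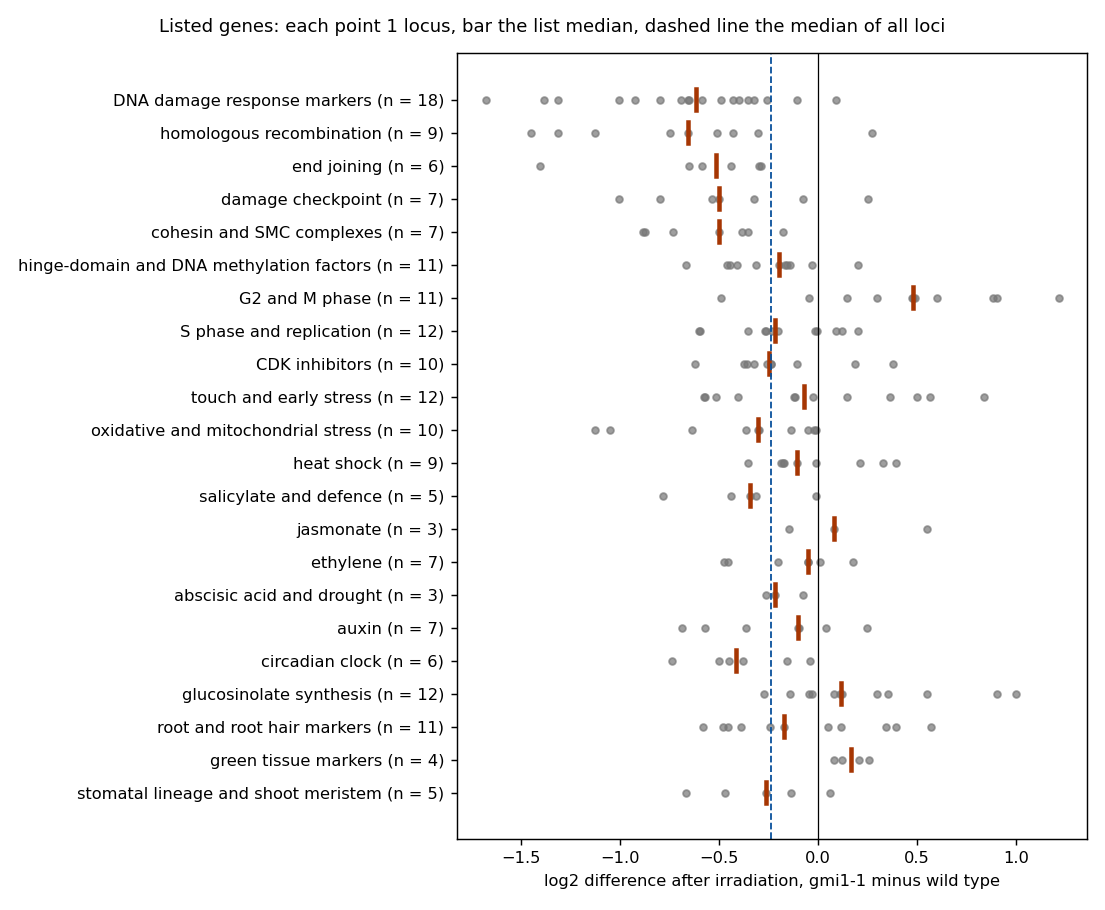
Log2 difference after irradiation, gmi1-1 minus wild type (horizontal), of each tested gene (grey points) of 22 gene lists, with n the number of genes; bars are list medians and the dashed line is the median of all loci, -0.24. List medians run from -0.66 for homologous recombination to 0.48 for G2 and M phase, and 0 of the 173 listed loci passed the test.

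Taking all 22 lists as one, 0 of 173 tested loci were called, and 7 had an unadjusted p under 0.05, all lower (4.05%, beside 7.6% of all loci). Without overlap 7 lay lower (4.05%, beside 6.96%) and 1 higher (0.578%, beside 0.374%). Of the 173, 124 were negative (71.7%, beside 81.9%). The median over the 173 was -0.20, or -0.15 without the doubted libraries, and 6 of the 22 list medians changed sign without those libraries. With all arrays, 10 of the 22 list medians lay below the median of all loci.

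The loci of smallest p among those with a gene name and without overlap are given as values, since GMI1 alone passed the test. On the lower side stood NET4B, an actin-binding membrane protein, with 8.08, 9.09 and 8.77 against 7.43, 7.22 and 7.0 (-1.43 ± 0.27, limma adjusted p = 0.6275). The NET4B difference in untreated seedlings was -0.92, again without passing the test. Next came ATJ6, a DnaJ co-chaperone (-0.91), the kinesin gene KICP-02 (-1.56), the myosin gene MYA1 (-1.01) and the RNA helicase gene ESP3 (-1.10). KICP-02 read 7.17, 8.03 and 7.39 against 5.81, 5.53 and 6.57, and MYA1 read 6.58, 6.94 and 6.31 against 5.62, 5.38 and 5.79. This group also held the auxin transporter ABCB4 (-0.91) and its relative ABCC4 (-0.95), with the pectin methylesterase gene ATPMEPCRB (-1.14) and the acyl-activating enzyme gene AAE15 (-0.79). In AAE15 replicate 1 of gmi1-1 was the highest of its group, at 7.54.

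On the higher side the differences were smaller. CLH1, a chlorophyllase, read 6.73, 5.29 and 5.88 against 7.83, 7.20 and 6.94 (1.36 ± 0.40, limma adjusted p = 0.6275). The other 11 were between 0.31 and 0.84: MLP31 (0.48), the tetratricopeptide repeat gene TPR12 (0.44), IRM1 (0.45), the Rab GTPase gene RABA1c (0.34), the trichome gene BLT (0.39), NHL2 (0.67), the thioredoxin reductase subunit gene FTRA2 (0.31), the J-domain gene DJC66 (0.42), ERF104, the phosphatase gene PFA-DSP5 (0.38) and USPL1 (0.32). NHL2 read 3.70, 3.58 and 3.80 against 4.38, 4.20 and 4.50, with narrow groups at a low level. The adjusted p of the 12 ran from 0.6275 to 0.6887.

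Without the doubted libraries the loci at the top changed, though again GMI1 alone was called, with 40 loci higher (0.404%) and 1322 lower (13.4%) at an unadjusted p under 0.05. On the higher side stood RHL41 (1.54, limma adjusted p = 0.191), the related zinc finger gene ZAT6 (1.23), the calcium-binding protein gene PBP1 (1.22), ERF6 (1.12), ERF104 (1.04), the pectin-related transferase gene GATL10 (0.88) and the expansin gene EXPA8 (0.78). The zinc finger gene ZAT6 read 5.05, 4.30 and 5.23 in wild type and 5.87 and 6.31 on gmi1-1 replicates 2 and 3, but 3.70 on replicate 1. The lower side held CAF1, a chloroplast intron splicing factor (-1.48), MFP1, a coiled-coil protein of thylakoids and nucleoids (-1.28), the histone chaperone FKBP53 (-2.11), the splicing factor RDM16 (-1.04), the chloroplast nucleoid protein FLN2 (-1.18), EMB2279 (-1.18) and the chloroplast division protein ARC3 (-1.50). CAF1 read 7.92, 7.91 and 7.63 against 6.38 and 6.30, with 7.82 on gmi1-1 replicate 1, and FKBP53 read 7.56, 7.99 and 8.22 against 5.23 and 6.40, with 7.94 on replicate 1. Except in RDM16, replicate 1 of these lower loci lay at or above the lowest wild type array, apart from the other arrays of its group. In this fit the gmi1-1 irradiated group held replicates 2 and 3 only, and replicate 3 is the array with the GAPDH signal of -1.30. Untreated gmi1-1 arrays also lay lower without overlap at FKBP53, RDM16, FLN2 and EMB2279, beside 8.13% of all loci, but not at CAF1, MFP1 and ARC3. Untreated FKBP53 read 7.82, 6.61 and 7.64 in gmi1-1 against 8, 8.39 and 8.53 in wild type.

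The lean to lower values also changed with gene length. In 9861 loci with a length in the annotation, split by length into 4 classes of equal size, the median difference was -0.09 in the class of shortest genes, -0.19 and -0.27 in the middle classes and -0.41 in the longest. The share of loci with all gmi1-1 arrays lower rose from 1.86% through 4.42% and 8.24% to 13.3%. From the shortest to the longest class, the median deviation from the wild type irradiated mean went from -0.02 to -0.19 on gmi1-1 replicate 1, from 0.06 to -0.33 on replicate 2 and from -0.27 to -0.66 on replicate 3. Length also went with the deviation of each wild type irradiated array from the mean of the other 2: replicate 2 went from -0.21 to 0.49, replicate 1 from -0.04 to -0.32 and replicate 3 from 0.22 to -0.16. Long genes were therefore highest on wild type replicate 2 and lowest on gmi1-1 replicate 3. Loci lower at an unadjusted limma p under 0.05 numbered 42, 88, 189 and 428 from the shortest to the longest class. Of the 12 loci with a gene name that were lower without overlap and had the smallest p among such loci, 9 were in the longest class, of 3321 bases or more. GMI1, at 11384 bases, is 1 of these 9. The part of length in their differences was not tested.

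**Figure D5:**
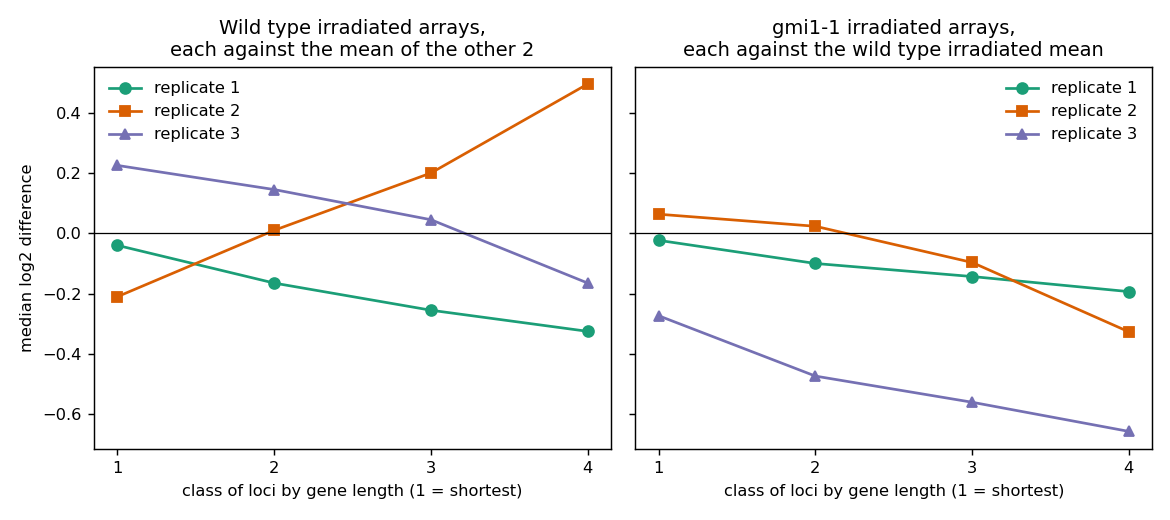
Median log2 difference (vertical) in 4 equal classes of the tested loci by gene length (horizontal, 1 = shortest), for each wild type irradiated array against the mean of the other 2 (left) and each gmi1-1 irradiated array against the wild type irradiated mean (right). Wild type replicate 2 climbs to 0.49 in the longest genes, and the 3 gmi1-1 arrays decline, replicate 3 to -0.66.

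The same genotype comparison without irradiation shares no arrays with the irradiated one, but its gmi1-1 group holds a doubted library. It called 1 locus, the defensin gene LCR67, higher by 3.60 in untreated gmi1-1 (0.0101%), a call that ended when any 1 of 8 arrays was left out. LCR67 passed the filter on low values only through the untreated gmi1-1 group, where it read 5.36, 5.15 and 5.86 against 2.1, 1.83 and 1.65 in untreated wild type, so its place among the tested loci rests on the group in which it is high. After irradiation LCR67 read 3.54, 1.68 and 2.06 in wild type against 2.38, 2.22 and 2.99 in gmi1-1 (0.10). Without irradiation all 3 gmi1-1 arrays lay higher at 129 loci (1.3%) and lower at 804 (8.13%). They lay lower at 70 loci in both comparisons and higher at 3, while 7 loci without overlap had opposite signs. AT1G27690, next in the untreated comparison by p, differed by 0.88 without and -0.28 with irradiation. The test of the difference between the comparisons called GMI1 and no other locus (0.0101% lower, 0% higher), with 11 loci higher (0.111%) and 173 lower (1.75%) at an unadjusted p under 0.05 in limma. This test holds both doubted libraries, and its counts, like those of untreated loci without overlap, are given with them only. At BRCA1, which rose in irradiated wild type, it gave -3.13 with an SE of 2.17, so differences at such loci could have been missed. AT1G22060, next in that test, read 7.30, 8.31 and 7.57 against 6.42, 5.86 and 6.78 after irradiation (-1.37) and differed by 0.07 without it.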

How the data were processed

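The deposited values are log2 expression values, 1 for each of 16947 loci and 2 control probe sets on 12 arrays, which the authors made with GCRMA, per the submitters' processing notes; no source used here gives its version or the array's design. GCRMA models background by probe sequence and compresses low values. The arrays keep different quartiles. Loci with a log2 value of at least 4 on at least 3 arrays were tested (9889). The model, in limma 3.58.1 and R 4.3.3, held 4 group means over the 12 arrays, with two-sided moderated p-values and Benjamini-Hochberg adjustment over all tested loci, and a call is an adjusted p under 0.05. P-values measure the spread between samples whose separate cultures are not described. Names, lengths and neighbours came from the RefSeq table of TAIR10.1, which matched 16851 loci. Lists held 299 loci, of which 225 were in the table and 173 tested. The members and lists were chosen with earlier results of these data known.

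Named loci were GMI1, up to 15 called or else, among loci with a gene name and without overlap, 12 of smallest p in each direction, 8 in each direction without the doubted libraries, the leading loci of the untreated and interaction contrasts, members of each list by smallest p, and measured neighbours of GMI1. Some loci that this rule picks are not reported here. Positions are summed deviations over the loci called for irradiation in wild type, divided by the summed wild type change. Same-numbered arrays of the irradiated groups deviated together (r = 0.41, 0.17 and 0.26, against -0.33 to 0.04 for other pairs), so the numbers may pair the samples. These r values share arrays and are not independent of each other. The main model did not use the pairing, and its standard errors, p-values and counts treat the samples as unpaired. With the replicate block, 1118 loci had an unadjusted limma p under 0.05 after irradiation, against 764 in the main model. Alternatives were the replicate block, other filters, quantile normalization, median centring, trend, robust prior, array weights, only the groups compared, and arrays left out. The fits were run on simulated data with independent noise and large changes only, which does not show how smaller differences would be called.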

Additional observations from a re-analysis of the deposited data

Results flagged for a closer look

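GMI1 is the 1 locus for which the test of the difference itself separated the genotypes' irradiation effects: the interaction was -8.16 (SE 0.38, limma adjusted p = 8.50e-07), from a genotype difference of -9.01 after irradiation and -0.84 without it. All 3 wild type irradiated arrays were above all 9 others. Over 24 other settings the interaction lay between -8.42 and -7.88.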

How the results depend on the processing

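GMI1 was called under all 26 alternatives run for it, with differences of -9.25 to -8.76 and adjusted p-values of 9.05e-13 to 1.1e-04. With the replicate block 1 locus was called after irradiation, as without it, and the block changed no other call. In an alternative chosen after seeing the data, the 6 irradiated arrays alone with a replicate block, 2 loci were called, GMI1 and AT3G02400 (adjusted p = 0.0212). The untreated count of 1 was 0 with the filter at log2 6, with median centring and without the doubted libraries and gmi1-1 irradiated replicate 3, and ranged from 0 to 2 with single arrays left out. Without a filter, 16 of the list medians lay below the median of all loci. The 764 loci at an unadjusted p under 0.05 became 271 without wild type irradiated replicate 2, 453 without gmi1-1 irradiated replicate 3, 1226 without wild type irradiated replicate 1, 1155 and 1336 without gmi1-1 irradiated replicates 2 and 1, 1118 with the replicate block, 1351 without a filter, 528 with the filter at log2 6, 292 with array weights, 360 with only the groups compared, 1800 without the 4 arrays numbered 1, and 784 with quantile normalization and no doubted libraries, an alternative chosen after seeing the data.

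Of 103 named loci other than GMI1, 24 changed sign under some alternative, none of them called under any; the cause was not tested. With quantile normalization these were LCR67 (-0.0018), AT1G27690 (0.0894), AT5G24260 (0.21), LIG1 (0.0565), KU80 (0.0346), AGO4 (0.0132), MYC2 (0.23), ABI1 (0.0347), LTI78 (0.16) and LHCB4.1 (-0.0154). With median centring they were AT5G24260 (0.0867), SS1 (0.0267), MYC2 (0.10) and LTI78 (0.03). With array weights they were LCR67 (-0.14), AT5G24210 (-0.12), AT5G24260 (0.0586) and MYC2 (0.0813). Without the doubted libraries they were ATXR6 (-0.0083), CSLD5 (-0.0917), AOS (-0.055), SMR5 (0.34) and XRI1 (0.005). Without these and gmi1-1 irradiated replicate 3 they were LCR67 (-0.21), RAD54 (0.19), CSLD5 (-0.20), MYC2 (0.31), ABI1 (0.0733), IAA1 (0.15), SHV2 (0.0633), PSBO1 (-0.0667), LHCB4.1 (-0.0733), SMR5 (0.0833) and XRI1 (0.01). Without the 4 arrays numbered 1 SMR5 was 0.30. With single arrays left out the ranges were -0.66 to 0.77 for AT5G24210, -0.60 to 0.0783 for LTI78, -0.27 to 0.66 for LCR67, -0.38 to 0.10 for AT5G24260, -0.48 to 0.0617 for KU80, -0.52 to 0.0933 for ABI1, -0.0083 to 0.43 for ATXR6, -0.0917 to 1.92 for CSLD5, -0.055 to 1.12 for AOS, -0.78 to 0.34 for SMR5, -0.60 to 0.005 for XRI1, -0.28 to 1.54 for RHL41, -0.075 to 1.23 for ZAT6, -0.27 to 1.22 for PBP1, -0.53 to 0.0817 for SS1 and -0.38 to 0.12 for MYC2. Of 527 recomputed list medians 32 moved by more than the spread between replicates. The number of arrays limits the precision, and GCRMA compresses differences near background.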
